A study of Mus musculus with 4 samples.

Results

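The subject here is how far the response to halofuginone differed between K5 and K6, cells of mouse pancreatic cancer (strain C57BL/6). Each line was profiled on a 1-colour microarray under control treatment (DMSO) and after halofuginone (100 nM, 24 h), with 1 array per line and condition. K5 control, K5 halofuginone, K6 control and K6 halofuginone are the 4 groups, and they share no further treatment in the labels. The labels and the design text do not state how the lines differ, whether either is 1 clone, or whether the samples came from separate cultures. The design text writes F for the treated samples where the sample titles write H. The series title concerns Nrf2 loss and sensitivity to gemcitabine, so lists of Nrf2 targets and of gemcitabine genes are among those described.

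For each gene, the K5 change (halofuginone minus control) was subtracted from the K6 change, on log2 processed intensity minus the 75th percentile of its array. This value is called the response difference. It is above 0 where the change in K6 was the more positive, and a value of 1 stands for 2-fold. The brightest probe of each gene name was used, and it had to be well above background, by the scanner's flag, on all 4 arrays. That rule kept 15896 of 36918 gene names on the array. The levels below are on the same log2 scale, where 0 is the 75th percentile of the array, and are compared within a probe only. With a single array per line and condition there is no spread between replicates and no test, so every statement below is one of size. Fewer cells of a kind and less RNA per cell cannot be told apart in such samples.

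Halofuginone blocks the prolyl-tRNA synthetase activity of the Eprs product. Uncharged tRNA then activates the kinase Gcn2, which slows general translation and favours Atf4, a transcription factor that drives amino acid synthesis, amino acid transport and stress genes. Pancreatic cancer cells are also known for signalling through Ras and the MAP kinases, whose early targets are immediate early genes such as Fos and Egr1.

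Between 47.2% and 54.0% of the 59305 non-control spots were well above background on each array, and 0 were saturated. Replicate spots of the same probe on an array had a median SD between 0.033 and 0.047 on the log2 scale, over 285 or 286 probes. The scanner's own error, carried through all 4 arrays, had a median of 0.29 for the response difference. These are technical errors within arrays, and with so few arrays no value below has a known error between samples. Of 20 epithelial and ductal markers, 18 passed on all 4 arrays. Among 20 immune markers 8 passed on all arrays and 8 on none, among them Tyrobp, Lyz2 and Cd8a. Of 15 fibroblast and stellate markers 2 passed on all arrays, of 10 endothelial markers 1, of 16 acinar markers 3 and of 12 islet markers 0.

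The lines changed in the same direction at most genes, and K6 changed more. Across genes, the changes correlated at r = 0.77 (Spearman 0.75, a description over genes, which are not replicates), and 78.3% of genes had the same sign in both. The SD of the change over genes was 0.95 in K5 and 1.14 in K6. In K5 3883 genes changed at least 2-fold in size, and in K6 4740. Where both lines were at least 2-fold off control the same way (2542 genes), the change was larger in K6 for 1672 (65.8%). The response difference had a median of 0.07 and an SD of 0.72 over genes, with 5% of genes below -1.18 and 5% above 1.1.

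A response difference of at least 2-fold was read at 2077 genes (13.1%). It was toward K6, that is more positive there, at 977 genes (6.15% of all), and toward K5 at 1100 (6.92%). The genes nearest this limit differ by far less than the scanner's error: the lowest value counted as higher was 1.0005 and the highest not counted was 0.9999. Scaling on the probes well above background on all 4 arrays moves the share of higher genes among those past 2-fold from 47.0% to 34.9%, since it moves the median of all genes from 0.07 to -0.05. Scaling on each array's median instead gave 1163 genes higher and 960 lower, so which direction holds more genes turns with the scaling. At 4-fold, 141 genes were higher and 149 lower, and at 8-fold 32 and 21.

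By size, the 2077 genes fell into classes. In 27 (0.17% of all genes) the lines moved at least 2-fold in opposite directions. Another 316 (1.99%) moved at least 2-fold in K5 with a K6 change under 0.5 (log2) either way, called K5 only by size, 136 of them higher after treatment and 180 lower. The reverse, K6 only by size, held for 498 (3.13%), 249 in each direction. Most numerous were the 737 (4.64%) that moved the same way in both lines to an unequal extent, of which 413 were lower in both and more so in K6. A further 499 had opposite signs with at least 1 of the changes under 2-fold.

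**Figure D1:**
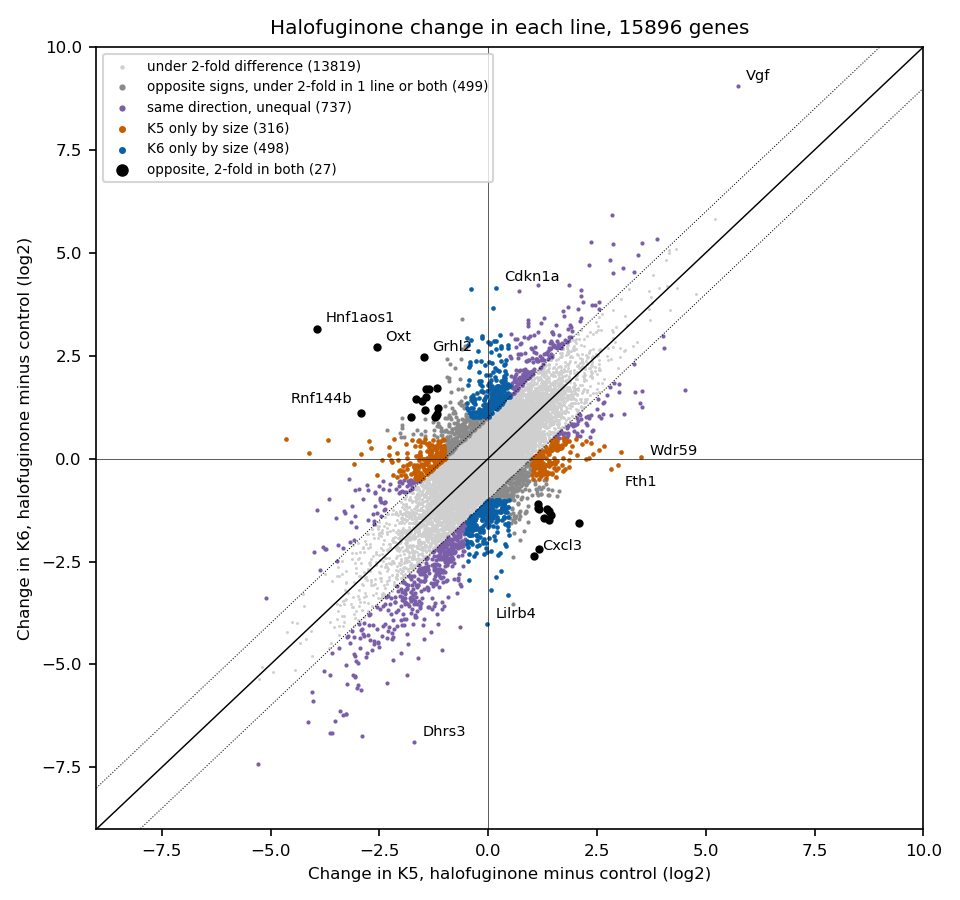
Each point is a gene (15896), placed by its log2 change with halofuginone in K5 (x axis) and in K6 (y axis) and coloured by its class of size. The solid line marks equal changes and the dotted lines a response difference of 2-fold. Hnf1aos1 and Oxt lie in the upper left, lower in K5 and higher in K6, while Wdr59 and Fth1 lie on the right near 0 in K6.

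Among the 27 genes that moved in opposite directions, 16 were lower in K5 and higher in K6, and 11 were the other way round. Of these, 14 and 4 carry a name other than a clone or predicted gene. The largest response difference of all was that of Hnf1aos1, a noncoding RNA read by a single passing probe. Its level was -0.75 in control K5, -4.67 in treated K5, -3.02 in control K6 and 0.14 in treated K6. Control K5 and treated K6 were thus the high arrays, and the response difference was 7.08, or 135-fold. Treated K5 lay near the lowest level well above background on its array, -4.92. Over the processing settings the response difference ran from 4.74 to 7.85, so its size is uncertain.

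Oxt, which encodes the hormone oxytocin, read 0.02, -2.53, -3.24 and -0.53 (K5 control, K5 treated, K6 control, K6 treated, the order used from here on). The control lines stood far apart, and treatment put K6 above K5. Pfkp, the platelet isoform of phosphofructokinase, an enzyme of glycolysis, read 1.92, 0.56, 0.28 and 1.96. Here too the order of the lines turned over: K5 was the higher under control and K6 after treatment. Another Pfkp probe gave a response difference of 2.81 against 3.04 at the brightest, so the swing was read at separate probes. Rgs16, which speeds the switching off of G proteins, read -1.83, -3.49, -3.21 and -1.75. Tomt, a methyltransferase, read -1.22, -2.66, -2.71 and -1.53. In both genes the high arrays were control K5 and treated K6, as for Hnf1aos1, and the other 2 arrays were low.

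In other genes the lines began close together and parted. Grhl2, a transcription factor that maintains epithelial identity, read -2.47, -3.95, -2.03 and 0.44. Mt2, a metal-binding metallothionein, read 5.71, 4.28, 6.06 and 7.76. Slc18a1, a vesicular transporter of monoamines, read -2.64, -4.07, -3.10 and -1.59, and its second passing probe gave a response difference of 2.97. At that probe the K6 change was 0.96, which is under 2-fold. In these 3 genes treated K6 was the highest array and treated K5 the lowest. Rnf144b, a ubiquitin ligase known as a p53 target, read -1.88, -4.80, -0.59 and 0.52, with K6 above K5 from the start. Its treated K5 level was also near the lowest well above background. Its response difference ran from 2.65 to 4.59 over the processing settings.

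The opposite orientation, higher in K5 and lower in K6, held Cxcl3, Plau, Atm and Tmod2 among named genes. Cxcl3, a chemokine that attracts neutrophils, read -1.41, -0.36, 0.61 and -1.76. Plau, the urokinase plasminogen activator, which cleaves plasminogen at the cell surface, read -1.94, -0.55, 1.88 and 0.40. The Plau lines approached each other, whereas Cxcl3 changed which line was higher. Tmod2, which caps actin filaments, read -2.99, -1.59, -3.31 and -4.58. Its treated K6 level was near the lowest well above background on that array, -5.01. Its response difference ran from -2.95 to -1.58 over the processing settings. Atm, the kinase that signals DNA double-strand breaks, read -1.57, -0.30, -0.90 and -2.34. A second Atm probe gave -2.0 against -2.72 at the brightest, with the same sign. In K5 that probe read -1.45 and -0.97, a change of 0.49, which is under 2-fold.

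**Figure D2:**
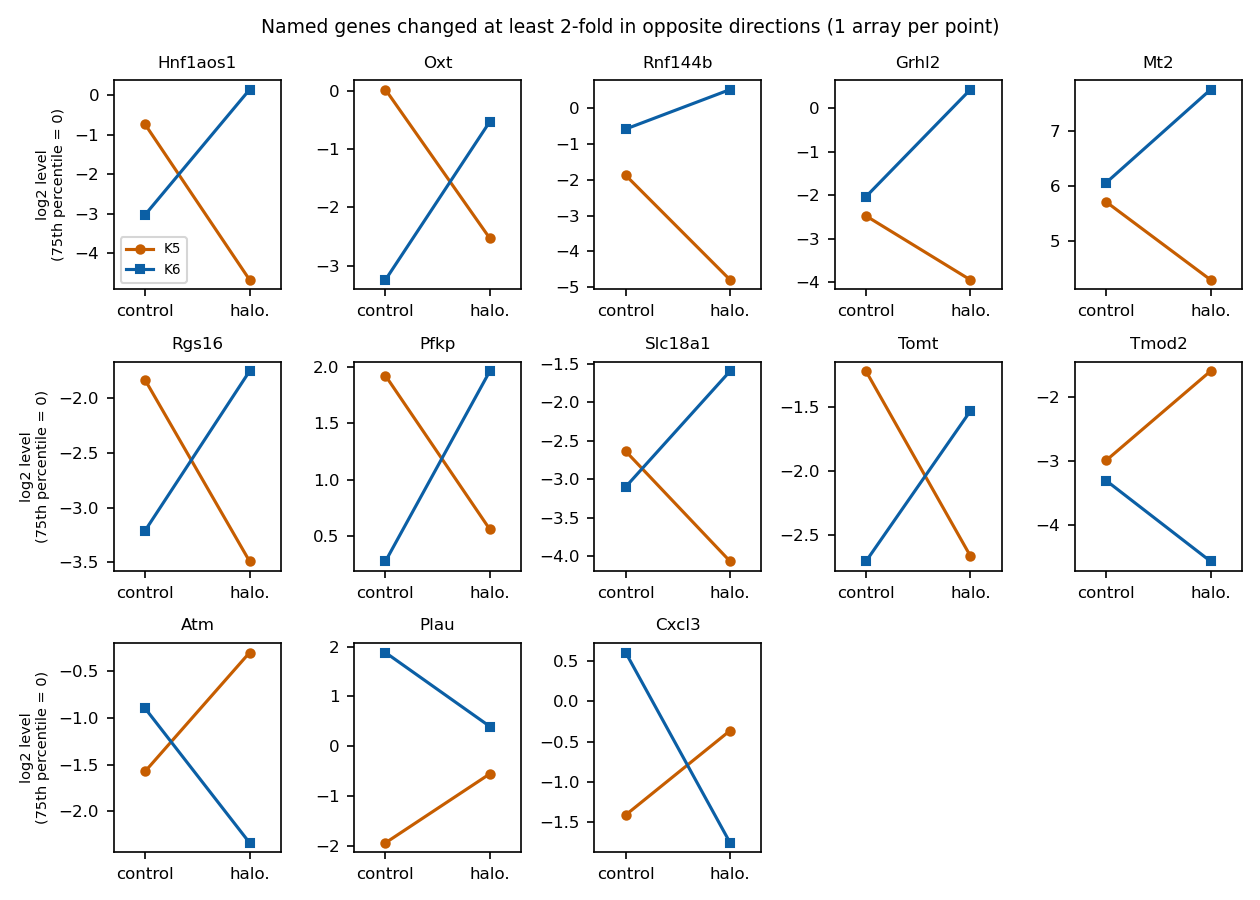
Log2 level (0 is the 75th percentile of the array) of the 13 named genes that moved at least 2-fold in opposite directions, under control and after halofuginone, in K5 (circles) and K6 (squares), 1 array per point. Lines cross where the line with the higher level changed, as in Hnf1aos1, Oxt, Rgs16, Pfkp and Tomt.

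The immediate early genes were the list with the highest median response difference, 1.13, beside 0.07 for all genes. Of 23 passing members, 14 were at least 2-fold toward K6 and 0 toward K5, and the median over members was a change of 0.20 for K5 and 1.65 for K6. For this and every later list, the shares over all genes were 6.15% toward K6 and 6.92% toward K5. Egr2, a zinc finger transcription factor, read -3.47, -3.19, -2.85 and 0.17. Jun, a subunit of the transcription factor AP-1, read 1.54, 1.13, 1.47 and 3.74, and Egr1, a zinc finger factor of the serum response, read 1.32, 1.16, 1.59 and 3.96. In these 3 genes treated K6 stood high while the other 3 arrays lay close together. Atf3, which also answers amino acid stress, was raised in both lines, from -1.18 to 1.13 in K5 and from -1.04 to 3.65 in K6. Of the members outside the naming rule, Fos read 0.98, 0.74, 0.35 and 1.94, a response difference of 1.84. Srf, whose product drives many of these genes, read 0.22, 0.99, 0.67 and 1.18 (-0.26), and Nr4a3 read -3.0, -3.22, -3.19 and -3.38, so not every member took part.

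Feedback inhibitors of MAP kinase signalling behaved alike. Of 19 passing members 8 were at least 2-fold toward K6 and 1 toward K5, and their changes had medians of 0.12 (K5) and 1.20 (K6). Dusp1, a phosphatase that switches off MAP kinases, read 1.02, 1.07, 1.69 and 4.49, a response difference of 2.75. Dusp8, of the same family, read -3.42, -2.51, -2.18 and 1.04, and Dusp5, an Erk phosphatase, read 2.42, 2.87, 1.23 and 3.98. Dusp14, another of these phosphatases, read 0.46, 0.83, 1.27 and 3.2. Treated K6 was the highest array in all 4. The exception was Etv5, a transcription factor downstream of Erk, at 3.21, 3.30, 2.73 and 1.72, and Dusp6 differed little (0.54). The Dusp1 promoter is printed because it is the member with the largest response difference. It holds the cyclic AMP response element TGACGTCA once, in capitals, from base -143 relative to the start site (GRCm38.p6, chr17:26508423-26508722, minus strand, RefSeq).
Dusp1 promoter: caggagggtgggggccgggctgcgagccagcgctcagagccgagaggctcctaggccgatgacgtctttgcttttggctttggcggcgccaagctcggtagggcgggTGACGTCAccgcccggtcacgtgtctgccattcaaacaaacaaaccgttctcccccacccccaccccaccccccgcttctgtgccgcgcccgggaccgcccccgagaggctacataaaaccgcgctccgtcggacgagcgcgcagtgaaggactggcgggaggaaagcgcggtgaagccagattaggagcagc
That element is found in 3.42% of the 10133 promoters of passing genes in 6 of the 100 with the highest response difference, in 2 of the 100 with the lowest and in 0 of 18 promoters of immediate early genes. A match is a description of the letters and shows no binding.

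Other genes were higher in K6 only by size. Cdkn1a, the p21 inhibitor of cyclin-dependent kinases, read 0.15, 0.33, -1.98 and 2.17, the low array being control K6. The list of TGF-beta and YAP response genes had 4 of 26 at least 2-fold toward K6, 0 toward K5 and a median of 0.63. Stmn4, a stathmin that binds tubulin, read -2.85, -3.24, -3.50 and -0.61. Rps6ka2, a ribosomal S6 kinase of the Erk pathway, read -1.39, -1.80, -1.75 and 0.59. In the last 2 genes treated K6 alone stood high.

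The circadian clock list had 6 of 14 at least 2-fold toward K6 and 0 toward K5, with median changes of 0.53 in K5 and 1.79 in K6. Rora, a nuclear receptor that activates Arntl, read -1.92, -2.35, -2.18 and 0.06. Nfil3, a repressor of clock output genes, read 2.57, 3.20, 1.07 and 3.78, Ciart, a repressor of Clock and Arntl, -1.5, 0.63, -3.12 and 0.97, and Bhlhe40, another repressor of the loop, 1.45, 0.71, 0.92 and 1.94. Nfil3 and Ciart began lower in K6 and ended higher there. Members outside the naming rule, such as Nr1d1, Per2 and Clock, changed by similar amounts in the lines, so the list's median of 0.38 lies between members that differed little and members that differed by more than 2-fold. The 6 members with a further probe had a median of 0.12 at the brightest probe and -0.07 at the next.

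**Figure D3:**
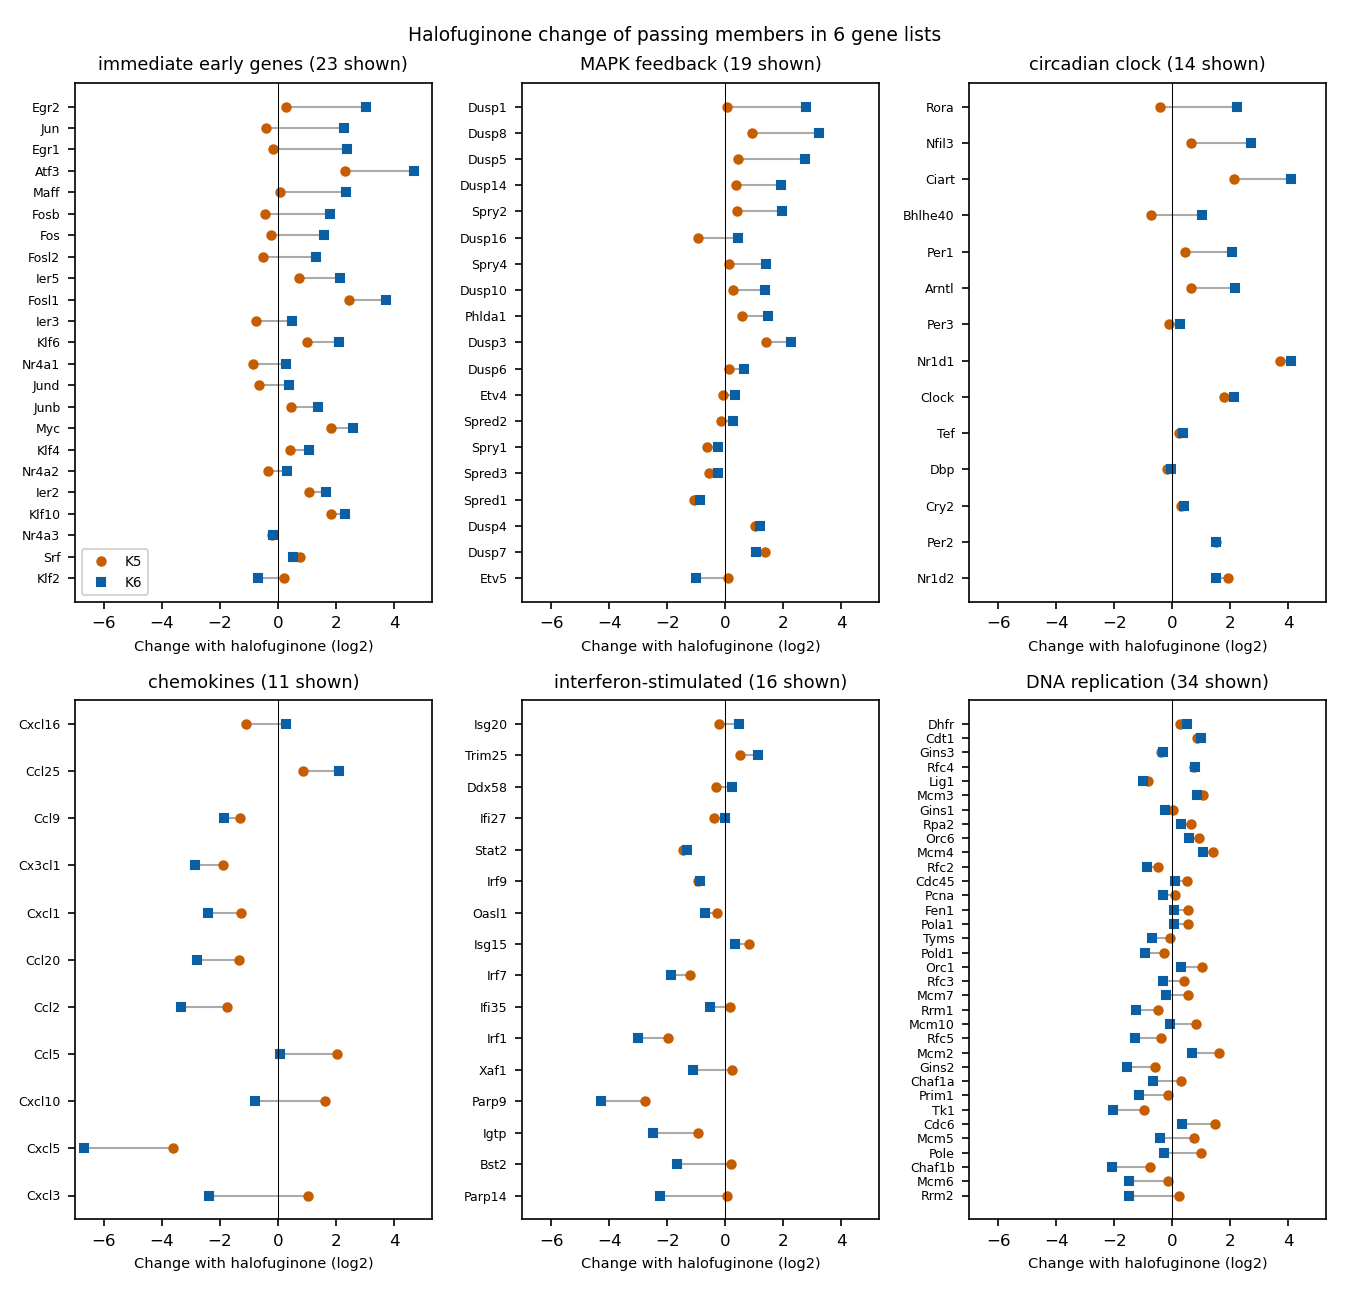
Log2 change with halofuginone in K5 (circles) and K6 (squares) for the passing members of 6 gene lists (1 interferon-stimulated gene is not shown), ordered by response difference, which is the length of the grey bar. The upper panels have K6 to the right of K5 for most members, and the lower panels have K6 to the left for most.

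Chemokines had the lowest median response difference of the lists, -1.43. Of 11 passing members 7 were at least 2-fold lower in K6 relative to K5 and 2 were higher, and the members' changes had medians of -1.28 (K5) and -2.36 (K6). Cxcl5, a neutrophil attractant, read 5.34, 1.71, 5.57 and -1.10, so it was lower in both treated arrays and far lower in K6. Cxcl10, an interferon-induced attractant of T cells, read -0.97, 0.65, -0.69 and -1.49, higher than control in K5 and lower in K6. Ccl5, another T cell attractant, read -3.82, -1.78, -3.61 and -3.53, near the lower end of measurement on every array except treated K5. Ccl2 and Ccl20 were lower in both lines, with response differences of -1.58 and -1.43. The exceptions were Cxcl16 (1.37) and Ccl25 (1.25). Only 2 members had a further passing probe, with a median of 1.31 at the brightest probe and 1.09 at the next. The 7 toward K5 were each read by a single passing probe. Il33, a cytokine released by damaged epithelium, read 3.72, 3.24, 1.52 and -0.97. The summed level of the immune markers was 5.13, 4.12, 5.08 and 3.89, lower in both treated arrays, and its part in these values was not tested. The markers did not fall alike, so the sum does not stand for each of them. Cd14 changed by -2.73 in K5 and -4.03 in K6, whereas Ptprc was higher by 1.04 and 0.17. The median change over the 8 passing immune markers was -0.64 in K5 and -0.54 in K6.

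Of 17 passing interferon-stimulated genes 7 were at least 2-fold toward K5 and 0 toward K6, with a median of -0.64 and median changes of -0.27 in K5 and -1.11 in K6. Parp14, an ADP-ribosyltransferase, read -2.84, -2.79, -1.12 and -3.37. Control K6 was the high array, and the other 3 were close together. Bst2, known as tetherin, which holds budding virus at the membrane, read 1.80, 2.0, 2.28 and 0.62, where treated K6 was the low one. Igtp, an interferon-induced GTPase, read -0.30, -1.26, -1.07 and -3.57. Other members did not share this, such as Stat2 (0.15) and Irf9 (0.09), transcription factors of the interferon response. The list's median also rests on members read by a single passing probe: the 8 with a further probe had a median of 0.23 at the brightest probe and 0.13 at the next.

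Promoters of both lists are shown because their members leaned the same way. Windows of 300 bases around the start site were given by RefSeq (GRCm38.p6) for 10133 of the 15896 genes, and motifs were sought on both strands. The NF-kB letters GGGNNTTCC were found in 4 of 7 chemokine promoters, namely Ccl9, Ccl20, Ccl25 and Cxcl10, against 7.33% of all. The interferon element, GAAA and again GAAA with 2 bases between, was found in 5 of 13 promoters of interferon-stimulated genes, those of Isg15, Stat2, Ddx58, Bst2 and Igtp, against 2.76% of all. In the 100 genes with the lowest response difference the letters were found in 10 and 6, and in the 100 with the highest in 8 and 1. Ccl25, Stat2 and Ddx58 hold the letters and had response differences of 1.25, 0.15 and 0.57, away from K5, so the letters were also held by members without the lists' direction. Capitals mark the NF-kB letters in the Cxcl10 window (chr5:92348840-92349139, minus strand) and the Ccl20 window (chr1:83116516-83116815, plus strand), and the interferon element, found at 2 places, in the Bst2 window (chr8:71537423-71537722, minus strand).
Cxcl10 promoter: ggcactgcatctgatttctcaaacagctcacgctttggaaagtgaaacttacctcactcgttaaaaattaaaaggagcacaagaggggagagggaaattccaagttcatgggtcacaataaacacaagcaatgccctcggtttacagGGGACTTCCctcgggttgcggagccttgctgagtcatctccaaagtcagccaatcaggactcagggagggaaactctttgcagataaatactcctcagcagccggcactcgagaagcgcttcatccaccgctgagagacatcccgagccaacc
Ccl20 promoter: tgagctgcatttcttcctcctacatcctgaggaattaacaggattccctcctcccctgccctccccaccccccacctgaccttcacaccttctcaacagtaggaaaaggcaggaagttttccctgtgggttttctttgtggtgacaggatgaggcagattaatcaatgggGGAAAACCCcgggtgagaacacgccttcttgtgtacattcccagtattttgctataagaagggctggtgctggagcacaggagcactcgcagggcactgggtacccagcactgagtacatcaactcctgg
Bst2 promoter: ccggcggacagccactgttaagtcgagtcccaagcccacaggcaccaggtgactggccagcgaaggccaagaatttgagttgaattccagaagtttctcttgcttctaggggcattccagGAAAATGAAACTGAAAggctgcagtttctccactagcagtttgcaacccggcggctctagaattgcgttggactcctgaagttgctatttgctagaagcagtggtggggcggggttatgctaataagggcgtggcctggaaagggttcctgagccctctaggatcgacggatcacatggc
Further motifs were near their share in all promoters: AP-1 (TGANTCA) was in 6 of the 100 promoters at either end against 5.15% of all, the HRE (ACGTG) in 24 of the lowest and 30 of the highest against 25.6%, and the E-box (CACGTG, which holds the HRE letters) in 9 and 10 against 10.2%. The ATF4 letters TGATGNAA were in 3 of the lowest and 6 of the highest against 2.35%, the NRF2 letters TGANNNNGC in 50 and 39 against 42.8%, and the GRHL letters AACCGGTT in 0 and 1 against 0.227%.

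DNA replication genes parted between the lines by small but like amounts. Of 34 passing members, 30 had a response difference below 0, 7 were at least 2-fold toward K5 and 0 toward K6, with a median of -0.68 from median changes of 0.34 (K5) and -0.30 (K6). Rrm2, the regulated subunit of ribonucleotide reductase and a target of gemcitabine, read 3.57, 3.79, 3.87 and 2.38. Mcm6, a subunit of the replicative helicase, read 4.96, 4.81, 5.29 and 3.81, and Chaf1b, a chaperone that loads histones behind the fork, 2.54, 1.76, 3.0 and 0.92. Treated K6 was the low array in all 3. Pole, the leading-strand polymerase, read 1.41, 2.39, 1.48 and 1.20 and was raised in K5 instead. The list of mitosis genes, by contrast, had a median of -0.07 over 35 genes. Of 19 passing gemcitabine genes 4 were at least 2-fold toward K5 (21.1%, against 6.92% of all genes). Toward K6 there was 1 (5.26%, against 6.15%), near the share of all genes. Rrm2 is counted in this list too. Dck, the kinase that activates gemcitabine, read 0.82, 0.76, 1.16 and -0.18, while Cda, the deaminase that inactivates it, read 0.04, -1.15, 0.56 and 0.38. Dck was thus lower in treated K6 and Cda in treated K5.

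Other genes lower in K6 only by size included receptors and secreted proteins. Lilrb4, an inhibitory receptor of myeloid cells, read -2.40, -2.43, -0.60 and -4.62. Its treated K6 level was near the lowest well above background on that array, -5.01. Its response difference ran from -4.11 to -2.49 over the processing settings. Kng1, the kininogen of the kallikrein system, read -1.86, -1.41, -0.76 and -4.08, and Lcn2, lipocalin 2, which binds bacterial siderophores, -1.49, -1.43, -0.55 and -3.73. In all 3 the K5 arrays lay within 0.46 of each other, and K6 passed from above them to below. E2f8, a repressor of E2F targets, read -0.13, -0.57, 0.05 and -2.90, with treated K6 the low array. Cyp1b1, a cytochrome P450, read -1.15, -0.87, 0.57 and -1.72, with control K6 the high one.

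Among named genes higher in K5 only by size, control K5 stood apart from the other 3 arrays in 4 of the 6 with the largest response difference. Wdr59, a subunit of the GATOR2 complex, which acts in amino acid signalling to mTORC1, read -3.65, -0.12, -0.52 and -0.49. Fth1, the heavy chain of the iron store ferritin, read 4.28, 7.26, 7.28 and 7.12. In both genes control K5 was low and the other arrays lay close together, so the size of the K5 change rests on that array. Pcnxl4 and the transporter Slc43a3 had the same shape, with response differences of -2.35 and -2.30. Fas, the death receptor, was higher in K5 only, at -0.30, 1.40, 0.48 and 0.34.

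In the other direction, lower in K5 only, Prss23, a secreted serine protease, read 0.22, -2.46, -0.78 and -0.52. Ndrg4, of the N-myc downstream-regulated family, read 0.13, -2.15, -0.10 and 0.17, and Enkur, a protein of motile cilia, -2.40, -4.49, -2.55 and -2.42. Treated K5 was the low array in these 3. For Enkur it lay near the lowest level well above background, -4.92, and the response difference ran from 1.16 to 2.64 over the processing settings. Scgb3a2, a secretoglobin, read -1.06, -4.13, -3.68 and -3.81, and Creb3l4, a membrane-bound transcription factor, 0.19, -2.05, -1.18 and -1.21, both with control K5 the high array. Pgk1, the glycolytic phosphoglycerate kinase, read 8.89, 7.73, 7.64 and 7.77. Control K5 was again the high one.

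Of 28 passing members of the glycolysis and hypoxia list, 9 were at least 2-fold toward K6 and 0 toward K5. Their changes had medians of -1.10 in K5 and -0.38 in K6, and 23 members were below control in K5 and 16 in K6. Beside Pfkp, Ndrg1, a hypoxia- and stress-induced gene, read 6.09, 6.62, 4.08 and 7.12. Pfkfb3, which makes the activator of phosphofructokinase, read 1.62, 1.75, 1.51 and 3.62, with treated K6 high alone, and Eno2, the neuronal enolase, -3.0, -1.16, -2.85 and 0.82. The 3 phosphofructokinase genes did not move alike: Pfkl and Pfkm were lower in both lines and more so in K6 (response differences of -0.97 and -0.84), opposite to Pfkp.

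The amino acid response was raised in both lines and further in K6. Of 41 passing members 10 were at least 2-fold toward K6 and 0 toward K5, with median changes of 1.75 and 2.31. Ppp1r15a, which directs the phosphatase that restores translation, read 2.76, 5.56, 2.55 and 7.38, and Ddit3, the transcription factor Chop, -1.11, 2.41, -0.74 and 4.50. At another Ddit3 probe the changes were 2.01 in K5 and 2.51 in K6. That is a response difference of 0.51, under 2-fold, against 1.71 at the brightest. Vldlr, a lipoprotein receptor, read 4.14, 4.53, 1.80 and 4.11, higher in K6 only, where its control was the low array. When the K5 changes were multiplied by 1.20, the ratio of the SDs of the 2 lines (an alternative chosen after seeing the data), the list's median response difference went from 0.48 to 0.15, while that of the immediate early genes was 1.18 and that of the chemokines -1.16. The tRNA synthetases, 20 genes with median changes of 1.38 in K5 and 1.49 in K6, had 0 past 2-fold and a range from -0.47 to 0.80. Slc7a3, a transporter of cationic amino acids, had the largest response difference within the list of amino acid transporters, at -1.15, 2.37, -1.98 and -0.73, more raised in K5.

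Of 33 passing Nrf2 targets 10 were at least 2-fold toward K5 and 0 toward K6, with median changes of -0.79 in K5 and -1.29 in K6. Of these 10, 8 were lower in both lines and more so in K6; the others were Fth1, higher in K5 only, and Gsr, glutathione reductase, lower in K6 only. The glutathione transferases among them were Gsta3 (1.63, -1.64, 3.06 and -3.15), Gsta4 (5.06, 1.81, 3.65 and -1.84) and Gsta2 (6.09, 3.80, 4.71 and 0.53). All 3 were lower in each treated array, and lowest in treated K6; they are close paralogs, and their probes may share signal. The liver-type plasma proteins had 7 of 19 toward K5 and 2 toward K6. Cfb, a complement factor, read 3.95, 0.93, 4.56 and -1.0, and C4b, another, -2.48, -3.71, -0.42 and -4.00. Serpinf2, the plasmin inhibitor, went the other way at -2.79, -4.77, -3.90 and -2.93. Its treated K5 level was near the lowest well above background on that array, -4.92. Its response difference ran from 1.63 to 3.35 over the processing settings.

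Of 23 passing integrins and adhesion genes 7 were at least 2-fold toward K5 and 1 toward K6. Their changes had medians near 0, -0.31 in K5 and -0.09 in K6, and 10 of the 23 response differences were above 0. The 13 members with a further probe had a median response difference of -0.33 at the brightest probe and 0.08 at the next. Vcam1, an adhesion receptor for leukocytes, read 4.02, 1.12, 3.80 and -2.94, and Itgb3, a subunit of the vitronectin receptor, 2.55, 1.40, 2.70 and -1.31. In both the controls were close and treated K6 was far the lowest. Itgb7, an integrin subunit of lymphocytes, was instead raised in both lines and more so in K5, at -1.44, 2.05, -1.59 and -0.24. Keratins and junction genes were split, with 4 of 28 at least 2-fold toward each line and a median of 0.19. Among those toward K5, Cldn2, a pore-forming claudin, read 2.97, 1.1, 3.08 and -2.18, and Tjp3, a scaffold of tight junctions, 2.64, -0.63, 2.14 and -4.06. Pkp2, a plaque protein of desmosomes, went the other way at 2.68, 2.33, 2.09 and 3.09. Itgb4, an integrin of hemidesmosomes, was lower in K5 only, at 2.38, 0.89, 3.07 and 3.06.

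Epithelial regulators leaned toward K6, with 6 of 21 at least 2-fold higher, 0 lower and a median of 0.55. Beside Grhl2, Crb3, a polarity protein, read -0.62, -1.78, -0.28 and 0.58, and Marveld3, a tight junction protein, -0.54, -2.94, -1.23 and -1.78. Crb3 had opposite signs in the lines. At its brightest probe Marveld3 was lower in both, less so in K6. The other passing Marveld3 probe changed by -1.40 in K5 and 0.43 in K6, so the sign in K6 differed between its probes. The summed level of the epithelial and ductal markers was 10.58, 10.17, 10.15 and 9.996, and its part in these values was not tested. The list of foregut transcription factors also holds the noncoding RNA Hnf1aos1. Of its 18 passing members 6 were toward K6, Hnf1aos1 among them, and 2 toward K5. The 5 members with a further probe had a median of 0.36 at the brightest probe and -0.79 at the next. Foxa3 read -1.63, -2.89, -2.20 and -1.51 and Sox9, a ductal factor, 0.06, -0.78, 0.59 and 1.24, while Onecut2, which specifies pancreas and liver, read 4.28, 4.98, 4.25 and 3.62. Foxa3 and Sox9 were lower in treated K5 and higher in treated K6, and Onecut2 was the reverse.

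The p53 target list was split rather than shifted. Of 30 passing members 6 were at least 2-fold toward K6, 3 toward K5 and the median was 0.18. Cdkn1a and Rnf144b led those toward K6. Btg2, an antiproliferative p53 target, read 1.27, -0.35, 0.97 and 1.40, lower in treated K5 alone, and Polk, a translesion polymerase, -0.13, -0.31, -0.43 and 1.38, higher in treated K6 alone. Fas was toward K5. The NF-kB targets were split too, with 5 of 22 toward K6 and 4 toward K5.

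Housekeeping lists differed little between the lines. None of 46 ribosomal proteins, 31 proteasome subunits and 35 respiratory chain subunits was past 2-fold in either direction, and their medians were 0.12, -0.18 and 0.05. Over all 43 lists, 10 had a median of at least 0.5 in size, and 9 of them kept their sign in every setting that gave them a value. The exception was the interferon-stimulated genes at the next brightest probe, as given above. The chemokines and the S100 family got no value in that setting, since each had only 2 genes with a further probe.

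**Figure D4:**
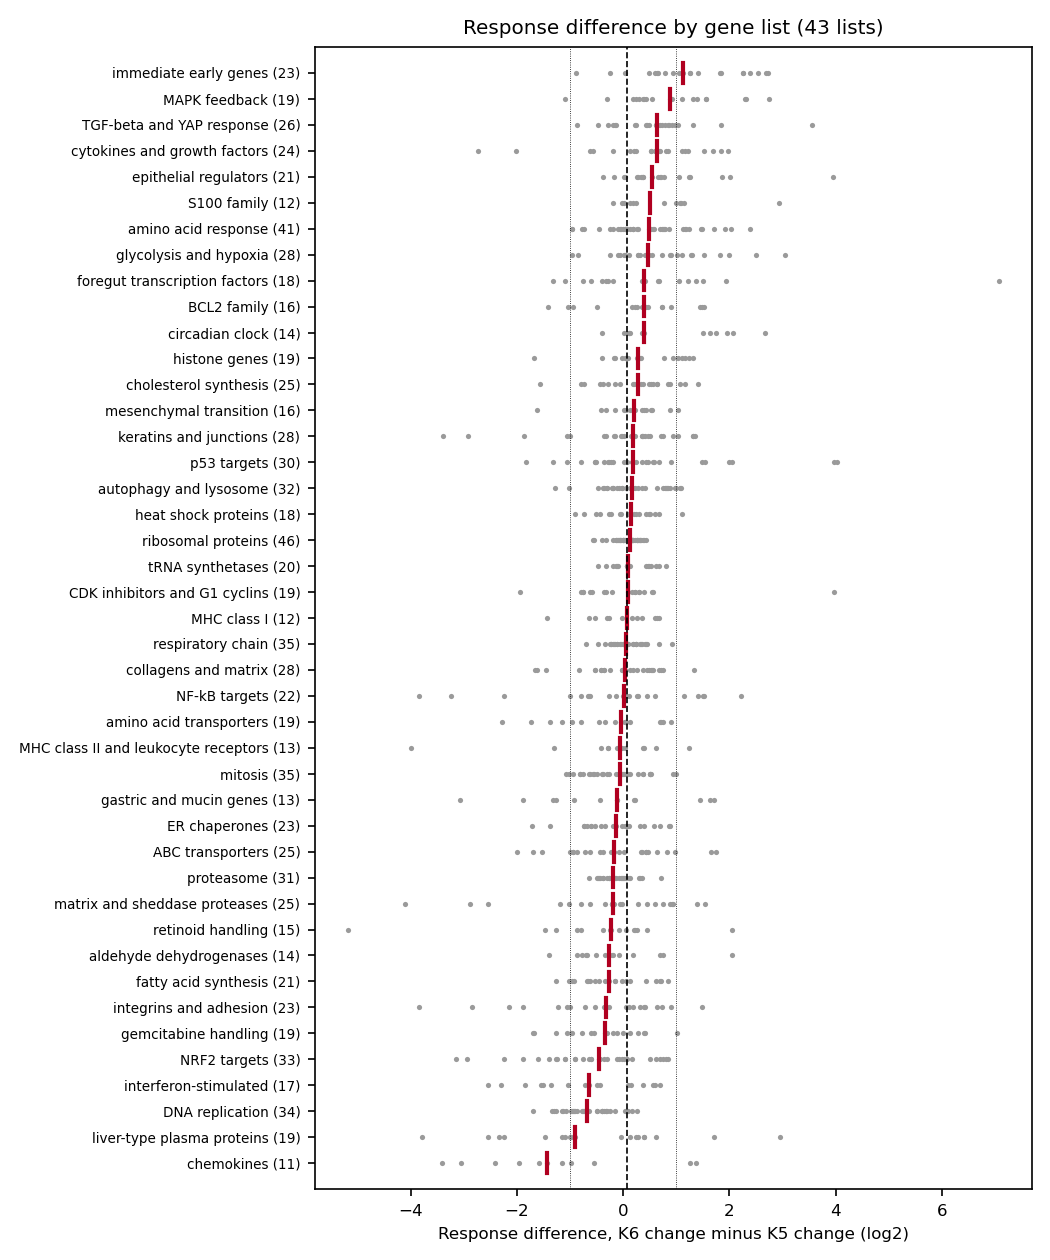
Response difference (K6 change minus K5 change, log2) of each passing member (grey points) in 43 gene lists, with the number of passing members in brackets and the list median as a red bar. The dashed line is the median of all genes, 0.07, and the dotted lines mark 2-fold. Medians run from -1.43 for chemokines to 1.13 for immediate early genes.

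Families were also formed from the letters of the symbols, 188 of them with at least 8 passing genes. The highest median was that of Klra, receptors of natural killer cells, at 1.19 with 7 of 9 genes at least 2-fold toward K6, and Klra2 read -2.19, -1.27, -2.96 and 0.42. These genes are near-identical copies whose probes may share signal, so the 9 values are not independent readings. Next were Abca (0.89), lipid transporters such as Abca1 at -1.87, -2.76, -2.80 and -1.95; its member with the largest difference, Abca2, went the other way at -0.12, -0.41, 0.13 and -2.16. Then came Klf (0.61), Serpinb (0.60), Dusp (0.57) and Prss (0.57). The lowest were Abcb (-0.93), Hsd (-0.72) and Mcm (-0.63). Abcb4, a phospholipid transporter, read 2.47, 3.02, 1.28 and 0.31, while Abcb9, the member with the largest difference, went against the family's median at -0.82, -1.14, -1.36 and -0.02. Hsd17b14, a steroid dehydrogenase, read 2.80, -0.26, 1.82 and -3.49. Man (-0.60), Tmed (-0.54) and Nudt (-0.54) followed, and the sign of Man and of Nudt turned in 1 of the settings tried.

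The 2077 genes can also be sorted by the gap between the lines, although the response difference is made of both gaps. In 739 (35.6%) the control levels lay within 0.5 and the treated levels at least 2-fold apart, in 280 (13.5%) the reverse held, and in 347 (16.7%) the order of the lines turned over with at least 0.5 on each side. The rest, 711 (34.2%), had another mixture. In 672 genes (32.4%) a single array stood apart from the other 3. That array was treated K6 in 372, control K5 in 132, treated K5 in 92 and control K6 in 76. Of 5194 genes with at least 2 passing probes, 531 were past 2-fold at the brightest; the next probe had the same sign in 467 (87.9%) and was also past 2-fold in 309 (58.2%).

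Some genes were left out because their probe was not well above background on every array, and for these the fold is a lower bound. The bound sets the measured array against the other array, taken at the brighter of these: the dimmest signal flagged as well above background there, or what the probe itself read. In 272 genes all arrays except treated K6 measured the gene. C1s1, a complement protease, was lower in K6 by at least 125-fold, with a K5 change of -4.77, and the secreted protein Spon2 by at least 105-fold, with a K5 change of -5.02. Both were thus lower in each line. In 1506 genes treated K6 was the only array to measure the gene, and in 851 treated K5 was. Leaving out clones and predicted genes, the bound reached 2-fold in 138 of 612 for K6 and 98 of 356 for K5. The lowest level well above background was -4.17 in control K5 and -4.92 in treated K5. In K6 it was -4.25 and -5.01. Those named next are among the largest bounds. Saa2, a serum amyloid, was higher in treated K6 by at least 16.3-fold and Serpinb9c, a serpin, by at least 22.3-fold. In treated K5, Ucn, the peptide urocortin, was higher by at least 23.4-fold, and Itga11, a collagen-binding integrin, by at least 14.4-fold. In 354 genes all arrays except control K6 measured the gene. Adm2, a calcitonin family peptide, was higher in treated K6 by at least 33.5-fold, with a K5 change of 3.19. In 651 genes all arrays except control K5 measured the gene. Cdsn, corneodesmosin, was higher in treated K5 by at least 33.5-fold, with a K6 change of 2.11. Adm2 and Cdsn were thus higher in each line. In both lines, more spots were well above background on the treated array than on the control array.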

How the data were processed

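Amplified Cy3 cRNA from each sample was read on 1-colour Agilent arrays (label protocol in the labels), 4 arrays on a single slide. The deposited intensity is the scanner's processed signal, background-subtracted within each array and not normalized between arrays, extracted with Feature Extraction 10.7.1.1 per the file headers (9.5.1.1 per the submitters' processing notes). The flags used are those the authors deposited.

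Outlier and control spots were left out, spots of a probe averaged (56304 of 56605 probes kept), log2 taken and the 75th percentile of the array's non-control spots subtracted (Python 3.11.15, pandas 2.3.3). Changes, response differences and classes of size were computed from these, with the authors' deposited value table, quantile and loess normalization and normexp (limma 3.58.1, R 4.3.3) among the alternatives. The code was tested on simulated data.

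Members and lists were chosen with earlier results of these data known. Named are the 15 highest and 15 lowest response differences, up to 8 of each opposite orientation, 6 of each class of 1 line by direction, 4 of each list and 3 of each family described; other genes were named after their values were seen. Names are those of the files; for Lilrb4, Pcnxl4 and 4 more the current symbol differs. No genome was used here. Some genes are not reported here, though counts and medians of lists include them.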

Additional observations from a re-analysis of the deposited data

Results flagged for a closer look

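Of the genes named, 13 moved at least 2-fold one way in K5 and at least 2-fold the other way in K6, so each line's only pair of arrays pointed in the opposite direction. With 1 array per line and condition the difference was not tested. Treated K5 for Hnf1aos1 and Rnf144b, and treated K6 for Tmod2, lay near the lowest level well above background. The size of the difference is uncertain there. The response differences (K6 change minus K5 change, log2) were 7.08 for Hnf1aos1, 5.27 for Oxt, 4.02 for Rnf144b, 3.94 for Grhl2, 3.13 for Mt2, 3.12 for Rgs16, 3.04 for Pfkp, 2.94 for Slc18a1 and 2.62 for Tomt, where K5 was lower and K6 higher after halofuginone. They were -3.41 for Cxcl3, -2.88 for Plau, -2.72 for Atm and -2.68 for Tmod2, where K5 was higher and K6 lower. A second passing probe was present for Slc18a1, Pfkp and Atm, with the same sign of response difference in each. Only the Pfkp probe also moved at least 2-fold in both lines. The Slc18a1 probe changed by 0.96 in K6 and the Atm probe by 0.49 in K5.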

How the results depend on the processing

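Numbers are given in the order higher, lower, opposite, K5 only, K6 only and same direction, beside 977, 1100, 27, 316, 498 and 737. The next brightest probe (5195 genes) gave 298, 441, 12, 109, 190 and 221. The brightest of the passing genes (5299) gave 219, 140, 2, 37, 96 and 148, and a 3-fold threshold 288, 339, 2, 59, 115 and 236. Fewer genes or a higher threshold make such counts smaller by construction. Among the brightest genes the fall went beyond the number of genes: 359 of 5299 were past 2-fold, against 2077 of 15896. Of those 359, 61.0% were higher, against 47.0% in the main setting. The filter on at least 2 arrays (19092 genes) gave 1619 higher, 1979 lower, 178 opposite, 607 K5 only and 1336 same direction. Normexp gave 11 opposite and 208 K5 only, and the cause was not tested. At 3-fold, a second probe was also past the threshold in 52.1% of genes, against 58.2% at 2-fold. Under median, quantile, loess and 75th percentile scaling, the authors' values and the mean over probes every count stayed within 1.5 times. Scaling the K5 changes, chosen after seeing the data, gave 1228 higher and 1182 lower. Of 185 named genes of at least 2-fold, 144 stayed so in every setting that held them. At the next brightest probe Fgf1 read 0.58 against -2.72, Tfeb 0.073 against -1.27, Tnfrsf1b -0.64 against 1.25 and the median of interferon-stimulated genes 0.13 against -0.64; the last covers 8 genes only, and the cause in the 3 genes was not tested. Cela1, Fbln1 and Tlr4, each under 2-fold, changed sign in at least 1 setting. No paired analysis was possible because each line has 1 array per condition and no replicate. Probes not well above background give only a bound, and 1 array per group limits every value.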
